A study of Mus musculus with 6 samples.

Results

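The genes of the matrix metalloproteinases (Mmp), of the disintegrin proteases of the Adam and Adamts families and of their tissue inhibitors (Timp) were followed in primary mouse hepatocytes depleted of RetSat, or retinol saturase, an oxidoreductase that converts retinol to dihydroretinol. The members were all genes whose symbol in the platform annotation is Mmp, Adam, Adamts or Timp followed by a number. This rule gave 78 of the 19938 genes measured, with 22 Mmp, 34 Adam, 18 Adamts and 4 Timp genes.

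Hepatocytes of a 10-week-old male wild-type C57BL/6J mouse were obtained by collagenase perfusion and a Percoll gradient, plated on collagen and transfected overnight with 1 nmol of siRNA against RetSat (siRetSat, 3 transfections) or of control siRNA (siControl, 3 transfections). Both groups received Lipofectamine and were seeded in medium with 25 mM glucose, and cells were lysed for RNA 48 h after the medium change. Each RNA was hybridised to 1 Affymetrix Mouse Gene 1.0 ST array, and the values below are the deposited log2 intensities after RMA, a method that corrects background, equalises the arrays and combines the probes of a probe set. The cells of both groups came from 1 mouse and RetSat was lowered by siRNA alone, so the p-values below measure the spread between transfections and not between animals.

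Matrix metalloproteinases and ADAM and ADAMTS proteases are zinc enzymes that are made as inactive proenzymes and cut collagens, fibronectin, proteoglycans or the outer parts of membrane proteins. The TIMP proteins bind the active site of these enzymes and block them. Timp3 differs from the other inhibitors in that it stays bound to the matrix and also inhibits Adam17 and several ADAMTS enzymes, while in liver the production of these proteins is largely known from stellate cells, macrophages and, for some members, hepatocytes.

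Retsat itself measured 4.62, 4.83 and 4.81 with siRetSat, against 6.80, 7.04 and 7.01 with siControl, a log2 fold change of -2.20 (SE 0.105, adjusted p = 0.000112 by limma). Log2 fold changes are siRetSat minus siControl throughout, and adjusted p-values come from limma over all 19938 genes with a threshold of 0.05. Values of different genes come from different probes and are not set against each other. The arrays numbered 1 stood somewhat apart in both groups, correlating at 0.992 to 0.995 with the other arrays of their group. Arrays 2 and 3 correlated at 0.997 with each other in both groups. The first principal component of the deviations from the group means held 61.5% of their variance, a share that does not by itself show which arrays differed. Low values mean a mean under the 40th percentile of 4.33. Among all genes with low values, the highest value of the group was on array 1 for 66.4% of genes with siRetSat and for 62.0% with siControl. Named genes that lose their call without both arrays numbered 1 are given with that value.

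Upon RetSat depletion the inhibitor Timp3 fell to 34.2% of its siControl signal and the protease Mmp11, or stromelysin 3, fell by 0.44 on the log2 scale. The call of Mmp11 stood at the threshold (adjusted p = 0.0499 by limma) and was lost when any single array was left out. No other gene of the families passed the test. By limma 2 of the 78 members passed the adjusted threshold, or 2.56%, against 3.56% of all genes. Both were lower with siRetSat, where 1.66% of all genes were called lower, and 0 members were called higher, where 1.91% of all genes were. At an unadjusted limma p under 0.05, 7 of the 78 members passed, against 2892 of all 19938 genes. At the sizes of the study's cutoffs, a difference of 0.32 or more on the log2 scale and an unadjusted p below 0.05, here taken by limma, 3 members or 3.85% passed, against 9.05% of all genes. These were Timp3, Mmp11 and Timp2, all lower, a direction that 4.58% of all genes took. By the methods' t-test in place of limma the same cutoffs left 2 members, Timp3 and Mmp11, against 7.15% of all genes. The share of members called was thus close to or under that of all genes. The median log2 fold change of the 78 members was 0.008, against 0.003 over all genes, and their median absolute change was 0.07, against 0.10 over all genes. Values above 0 were found for 40 members and values below 0 for 38. Only 28 members or 35.9% had a mean above 4.33, against 60.9% of all genes, so most of the members were measured at low intensity.

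**Figure D1:**
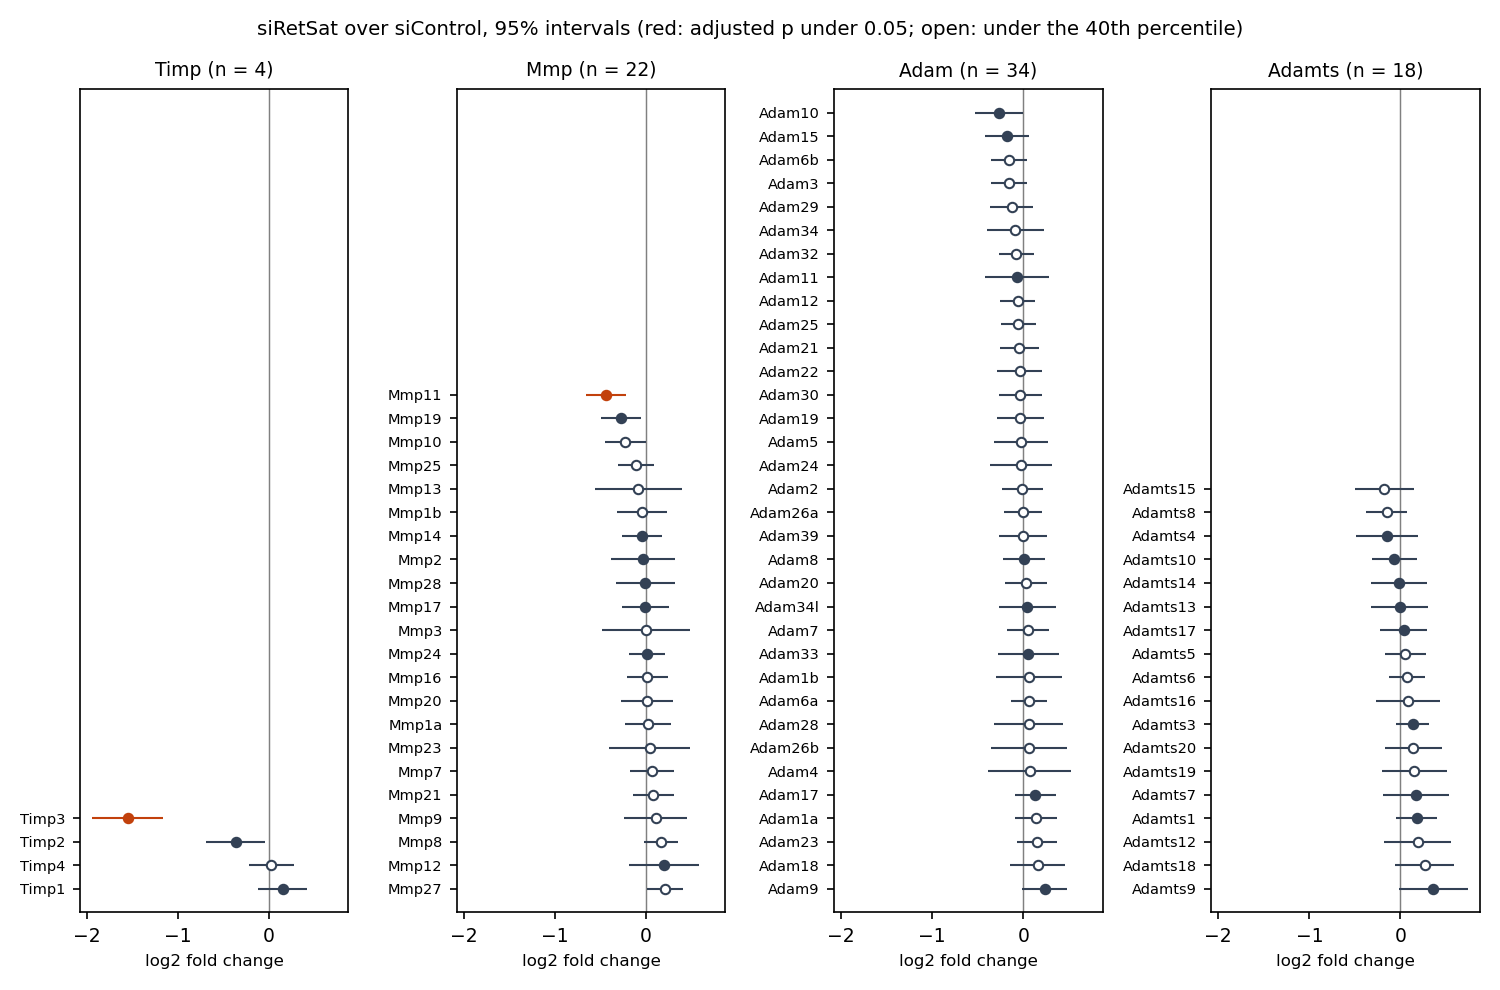
Log2 fold change (siRetSat over siControl, x axis) of each of the 78 members with its 95% interval, in a panel per family, with open points for members under the 40th percentile of all genes' means and red points for those with an adjusted p under 0.05. Timp3 stands at -1.55 and Mmp11 at -0.44, while every other member lies between -0.37 and 0.36.

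Timp3, the matrix-bound inhibitor of metalloproteinases, measured 5.85, 6.40 and 6.42 with siRetSat, against 7.57, 7.93 and 7.82 with siControl. The groups did not overlap, and the highest siRetSat value was more than 1 log2 unit under the lowest siControl value. The means were 6.22 ± 0.32 with siRetSat and 7.77 ± 0.18 with siControl (SD, n = 3 transfections each), a log2 fold change of -1.55 (SE 0.169, adjusted p = 0.00316 by limma), so that 34.2% of the siControl signal remained. A two-sided exact permutation test gave p = 0.1, the smallest that 3 against 3 arrays allow. Timp3 passed the adjusted threshold when any single array was left out, with log2 fold changes between -1.65 and -1.36, and also without both arrays numbered 1, where the change was -1.46. It did not pass without both arrays numbered 2, where the change was -1.56 and the adjusted p = 0.12 by limma. In RNA of a whole culture, fewer cells of a type and less RNA per cell cannot be told apart.

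The other 3 inhibitors did not pass. Timp1, a secreted inhibitor that is induced in injured liver, measured 5.11, 5.47 and 5.30 with siRetSat, against 5.20, 5.0 and 5.23 with siControl. Its groups overlapped, and the log2 fold change was 0.15 (95% interval -0.12 to 0.42, adjusted p = 0.705 by limma). Timp2, which also helps Mmp14 to activate pro-Mmp2, measured 5.22, 5.76 and 5.35 with siRetSat, against 5.72, 5.88 and 5.83 with siControl. Only the second siRetSat array reached into the siControl range, and the difference of -0.37 (95% interval -0.69 to -0.04, adjusted p = 0.275 by limma) met both cutoffs by limma, but not by the methods' t-test, and missed the adjusted threshold. Timp4, which is best known from heart, measured 3.54, 3.45 and 3.23 with siRetSat, against 3.45, 3.39 and 3.30 with siControl. These low values overlapped, with a log2 fold change of 0.03 (95% interval -0.22 to 0.27).

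The value of Timp3 was also taken relative to each other inhibitor on the same array, where only the change of this difference between groups can be read. Relative to Timp1 it was 0.74, 0.93 and 1.12 with siRetSat, against 2.37, 2.93 and 2.59 with siControl. Relative to Timp2 it was 0.63, 0.64 and 1.07 with siRetSat, against 1.85, 2.05 and 1.99 with siControl. Relative to Timp4 it was 2.31, 2.95 and 3.19 with siRetSat, against 4.12, 4.54 and 4.52 with siControl. In all 3 pairs the groups did not overlap. The changes were -1.70, -1.18 and -1.58 for Timp1, Timp2 and Timp4 in that order. Each had an exact two-sided permutation p = 0.1 before and after Benjamini-Hochberg adjustment over the 3 pairs, again the smallest p possible. All 3 pairs use the same Timp3 values, so they restate its difference and are not further tests of it.

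**Figure D2:**
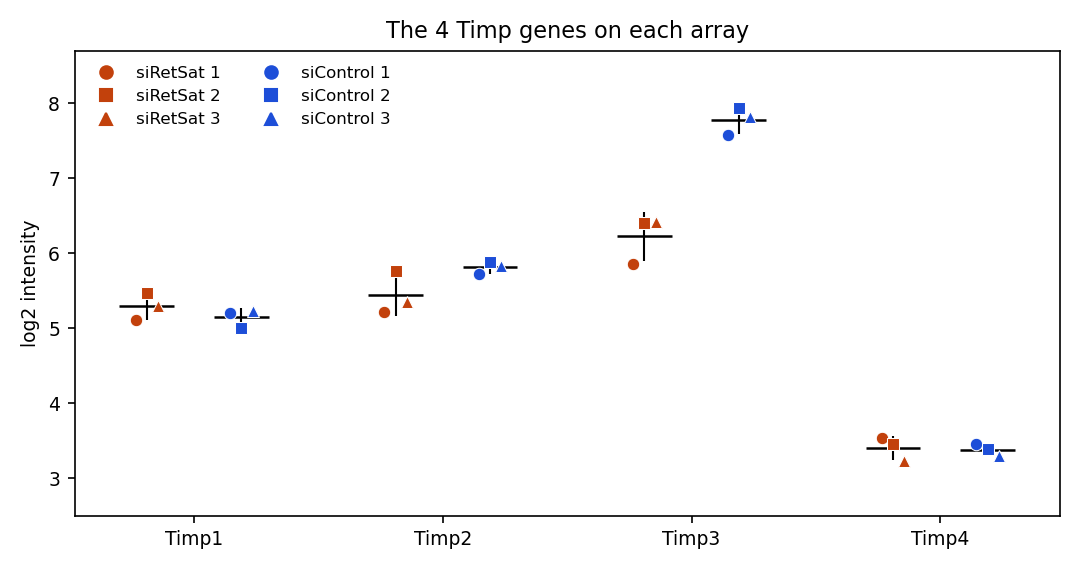
Deposited log2 intensity (y axis) of Timp1, Timp2, Timp3 and Timp4 on each array, with siRetSat left of siControl, a horizontal bar at each group mean and a vertical bar for the SD (n = 3 each). Timp3 separates the groups (means of 6.22 with siRetSat and 7.77 with siControl), while the groups of the other 3 inhibitors overlap.

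Timp1, Timp3 and Timp4 lie within introns of the synapsin genes Syn1, Syn3 and Syn2, which code for proteins of synaptic vesicles. None of these 3 host genes passed the test. Syn3, the host of Timp3, measured 4.71, 4.43 and 4.49 with siRetSat, against 4.81, 4.71 and 4.52 with siControl, a log2 fold change of -0.14 (adjusted p = 0.735 by limma). Its groups were close together, with the lowest siControl value between the siRetSat values. Syn1 differed by 0.12 and Syn2, at low values, by -0.21.

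The sequence before the start of transcription is shown for the 2 members that passed the test and, as an example of the 3 inhibitors that did not, for Timp1. RefSeq sequence of build GRCm38.p6 was matched by gene for 48 of the 78 members. Each stretch holds the 250 bases up to the start of the gene, 5′ to 3′ on its own strand, at chr10:86300162-86300411 on the plus strand for Timp3, at chr10:75932503-75932752 on the minus strand for Mmp11 and at chrX:20869916-20870165 on the plus strand for Timp1. Capitals mark the letters of a GC box (GGGCGG, or CCGCCC on the other strand) and of an ETS motif (AGGAAG, or CTTCCT on the other strand).
Timp3: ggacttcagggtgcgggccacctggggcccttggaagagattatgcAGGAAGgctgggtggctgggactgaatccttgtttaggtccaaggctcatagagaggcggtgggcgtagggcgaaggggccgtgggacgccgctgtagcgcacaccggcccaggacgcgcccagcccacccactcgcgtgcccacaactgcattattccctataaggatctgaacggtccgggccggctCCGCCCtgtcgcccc
Mmp11: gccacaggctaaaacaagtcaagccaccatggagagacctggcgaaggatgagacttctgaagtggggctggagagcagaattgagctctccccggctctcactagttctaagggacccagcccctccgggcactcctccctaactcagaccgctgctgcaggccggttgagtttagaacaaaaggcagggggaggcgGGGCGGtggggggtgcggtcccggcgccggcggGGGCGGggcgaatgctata
Timp1: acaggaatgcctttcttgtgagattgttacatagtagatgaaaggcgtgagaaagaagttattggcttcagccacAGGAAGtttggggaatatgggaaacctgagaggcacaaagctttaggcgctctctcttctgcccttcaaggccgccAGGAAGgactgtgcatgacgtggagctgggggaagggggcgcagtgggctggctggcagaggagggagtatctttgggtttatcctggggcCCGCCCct

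The Timp3 stretch held 1 GC box, starting 15 bases before the start of the gene, and 1 ETS motif 204 bases before it. The Mmp11 stretch held 2 GC boxes, the nearest 19 bases before the start, and no ETS motif. The Timp1 stretch held 1 GC box 8 bases before the start and 2 ETS motifs. Of the inhibitors not printed, Timp2 held 1 GC box and no ETS motif and Timp4 held 1 ETS motif and no GC box. GC content was 65.6% for Timp3, 63.2% for Mmp11, 54.4% for Timp1, 68.0% for Timp2 and 53.6% for Timp4, against a median of 52.4% over all stretches. A GC box is common, being present in 37.5% of the 48 members and in 35.4% of the 27025 genes with such a stretch, so its presence in both members that passed is no distinction. An ETS motif was present in 39.6% of members and 32.3% of genes, and a TATA box (TATAAA, either strand) in 25.0% of members and 14.3% of genes. The AP-1 motif TGANTCA, the element through which several Mmp genes respond to Fos and Jun proteins, was present in 12 members or 25.0%, against 7.82% of genes. Those 12 were Mmp1a, Mmp1b, Mmp3, Mmp7, Mmp10, Mmp12, Mmp13, Mmp20, Adam19, Adam20, Adam25 and Adam29. None of them passed the test, 1 was above the value of 4.33, and their log2 fold changes lay between -0.23 and 0.19. The CArG box, to which serum response factor binds, was found in 0 of the 48 members and in 1.62% of genes. These matches describe letters in a window and not bound sites.

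Among the 22 Mmp genes, log2 fold changes ran between -0.44 and 0.21 with a median of 0.003, and 8 were above 4.33. Mmp11, which is activated inside the cell by furin, measured 5.49, 5.68 and 5.68 with siRetSat, against 6.00, 6.01 and 6.16 with siControl. The groups did not overlap, and the log2 fold change was -0.44 (SE 0.097, adjusted p = 0.0499 by limma). This call stood at the threshold and was lost when any single array was left out (adjusted p between 0.0852 and 0.182 by limma), and without both arrays numbered 1 the change was -0.40 (adjusted p = 0.0711). Mmp19, a protease of basement membrane proteins, measured 6.35, 6.38 and 6.50 with siRetSat, against 6.58, 6.69 and 6.79 with siControl. Its groups were also apart, but the difference of -0.28 did not pass (adjusted p = 0.202 by limma). Mmp10, or stromelysin 2, measured 4.14, 3.98 and 3.98 with siRetSat, against 4.37, 4.28 and 4.14 with siControl, with groups that met at 4.14 and a difference of -0.23 (adjusted p = 0.333 by limma). Mmp27 measured 3.11, 2.92 and 3.03 with siRetSat, against 2.81, 2.85 and 2.78 with siControl, a difference of 0.21 (adjusted p = 0.331 by limma). Although its groups were apart, all of its values were low.

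The collagenases and gelatinases gave no call. The 4 collagenase genes were all under 4.33 and differed by between -0.09 and 0.16. Of the gelatinases, which degrade denatured collagen and collagen of basement membranes, Mmp2 measured 4.57, 4.51 and 4.21 with siRetSat, against 4.60, 4.63 and 4.16 with siControl (log2 fold change -0.03, adjusted p = 0.977 by limma), and Mmp9 was under 4.33 with a change of 0.10. The 5 membrane-type Mmp genes differed by between -0.11 and 0.01. Mmp14, the membrane-bound activator of pro-Mmp2, measured 9.67, 9.86 and 9.77 with siRetSat, against 9.70, 9.86 and 9.87 with siControl. These values overlapped almost completely, and the 95% interval of the difference ran between -0.26 and 0.18. Mmp12, the macrophage elastase, had overlapping groups of 5.53, 5.10 and 5.29 with siRetSat and 4.78, 5.20 and 5.36 with siControl.

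None of the 34 Adam genes, which include 3 neural members without protease activity, passed the test. Their log2 fold changes ran between -0.27 and 0.23 with a median of -0.007, and 8 were above 4.33. The sheddases, which release the outer parts of membrane proteins, were among these 8. Adam10, which cuts Notch receptors and cadherins, measured 8.91, 9.24 and 9.21 with siRetSat, against 9.27, 9.47 and 9.42 with siControl, a difference of -0.27 (adjusted p = 0.34 by limma) with groups that were narrowly apart. Adam9, a sheddase of growth factors, measured 9.57, 9.62 and 9.60 with siRetSat, against 9.17, 9.51 and 9.41 with siControl. This difference of 0.23 ran the other way, again with groups narrowly apart and no call (adjusted p = 0.368 by limma). Adam17, the enzyme that releases tumour necrosis factor and is inhibited by Timp3, measured 8.37, 8.42 and 8.60 with siRetSat, against 8.24, 8.41 and 8.34 with siControl (log2 fold change 0.13, adjusted p = 0.674 by limma). Adam15 measured 6.90, 6.79 and 6.58 with siRetSat, against 6.98, 6.94 and 6.89 with siControl (log2 fold change -0.18, adjusted p = 0.526 by limma). Both pairs of groups overlapped.

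A further 22 Adam genes are known from testis and other reproductive tissue, and 1 of them was above 4.33. Their changes lay between -0.16 and 0.16. Adam3, a sperm surface protein, measured 2.93, 2.90 and 2.89 with siRetSat, against 3.15, 2.97 and 3.08 with siControl (log2 fold change -0.16, adjusted p = 0.485 by limma). Adam6b, another gene of testis, measured 2.76, 2.78 and 2.84 with siRetSat, against 3.03, 2.95 and 2.88 with siControl (log2 fold change -0.16, adjusted p = 0.476 by limma). In both the groups were narrowly apart, at values well under 4.33. Of the 50 members under 4.33, the highest value of the group was on array 1 for 34 members with siRetSat and for 34 with siControl, as it was for most genes at low values. The lowest value was on array 3 for 33 of these members with siRetSat and for 33 with siControl. The part of this in single differences was not tested.

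The 18 Adamts genes had a median log2 fold change of 0.077, with 12 above 0, a range between -0.18 and 0.36 and 9 above 4.33, and none passed the test. Adamts9, a protease of the proteoglycan versican, measured 5.91, 5.90 and 5.65 with siRetSat, against 5.83, 5.32 and 5.23 with siControl. It had the largest positive difference of the 78 members, 0.36 (adjusted p = 0.37 by limma), but its groups overlapped. The 6 probe sets of this gene did not move together, with 4 differences above 0 and 2 below, between -0.22 and 0.36, and the mean of all 6 differed by 0.06. Adamts18 measured 4.08, 3.90 and 3.66 with siRetSat, against 3.77, 3.68 and 3.39 with siControl, with overlapping low values and a difference of 0.27 (adjusted p = 0.47 by limma). Adamts1, a protease of aggrecan and versican, measured 7.80, 7.76 and 7.91 with siRetSat, against 7.74, 7.50 and 7.70 with siControl, which were apart with a difference of 0.18 (adjusted p = 0.507 by limma). Adamts3, which trims procollagen and activates the lymphatic growth factor VEGF-C, measured 5.07, 5.12 and 5.05 with siRetSat, against 4.92, 4.95 and 4.97 with siControl. Its groups were narrowly apart at the brightest of its 16 probe sets, with differences between -0.15 and 0.13 over all 16 and no call (adjusted p = 0.552 by limma). Adamts13, the liver enzyme that cuts von Willebrand factor in blood, differed by -0.01 on the log2 scale (adjusted p = 0.992 by limma).

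**Figure D3:**
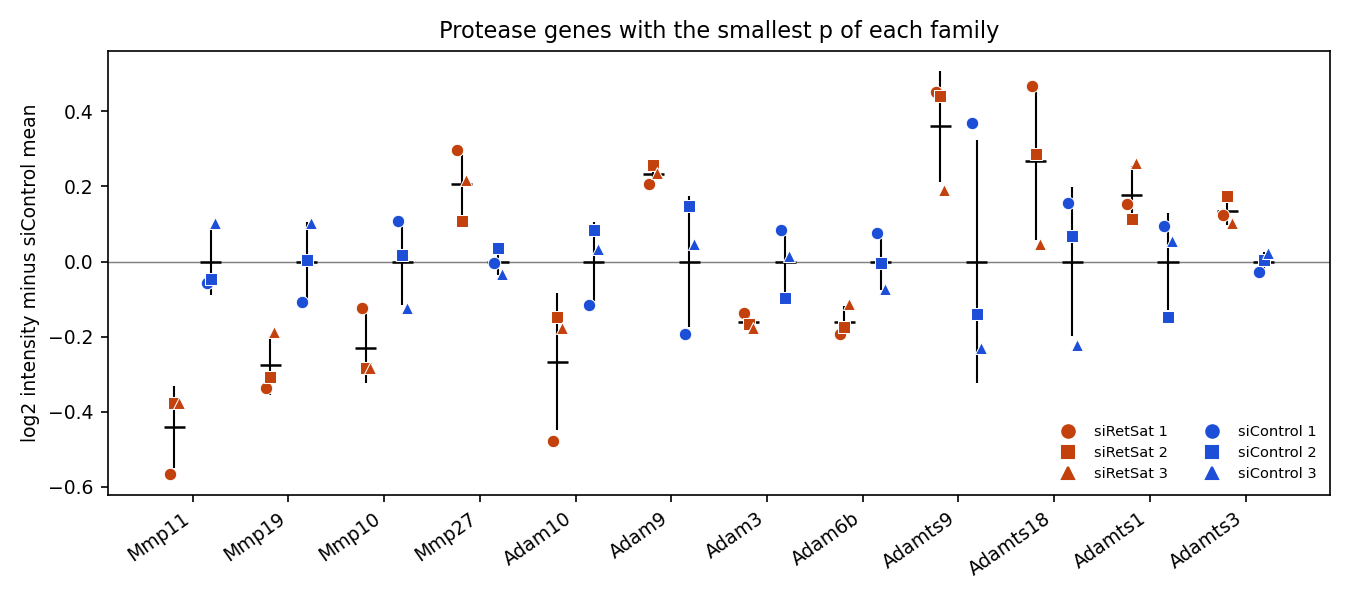
Log2 intensity minus the siControl mean of the gene (y axis) on each array for the 4 genes with the smallest p in each of the Mmp, Adam and Adamts families, with siRetSat left of siControl, a horizontal bar at each group mean and a vertical bar for the SD (n = 3 each). The siRetSat mean lies at -0.44 for Mmp11 and between -0.28 and 0.36 for the others.

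Non-overlap of the groups was likewise no more frequent than over all genes, although a smaller share of members than of all genes was above 4.33. The 3 siRetSat arrays were all on the same side of the siControl arrays for 11 of 78 members or 14.1%, against 19.5% of all genes. They were above for 5 members (Mmp8, Mmp27, Adam9, Adamts1 and Adamts3), against 9.33% of all genes, and below for 6 (Timp3, Mmp11, Mmp19, Adam10, Adam3 and Adam6b), against 10.1% of all genes. By level, the groups were apart for 7 of the 28 members above 4.33 and for 4 of the 50 under it, and all genes were not split by level. The precision of 3 arrays a group set what could be seen in the rest. Of the 26 members above 4.33 that were not called, the 95% interval of the difference stayed within 0.32 on the log2 scale, the size the study's cutoffs ask for, for 8 members, within a fold of 1.5 for 24, all but Adamts9 and Timp2, and within a fold of 2 for all 26.

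The genes with which these proteases work were taken from 6 lists of 103 measured genes in all. Of these, 4 or 3.88% passed the test, against 3.56% of all genes in either direction. All 4 were lower with siRetSat, where 1.66% of all genes were called lower. None was called higher, where 1.91% of all genes were. Among 25 activators, partners and other inhibitors, 2 were lower and 0 higher. Pzp, the pregnancy zone protein, a broad protease trap of the α2-macroglobulin family, measured 9.0, 9.06 and 9.02 with siRetSat, against 9.83, 10.19 and 9.82 with siControl (log2 fold change -0.92, adjusted p = 0.00547 by limma). Plaur, the urokinase receptor that gathers plasminogen activation at the cell surface, measured 8.75, 8.79 and 8.85 with siRetSat, against 9.43, 9.44 and 9.59 with siControl (log2 fold change -0.69, adjusted p = 0.0056 by limma). In both genes the groups were well apart. Furin, the convertase that activates Mmp11 and many Adam proenzymes, differed by -0.36 (adjusted p = 0.0933) and Bsg, the inducer of Mmp expression also called EMMPRIN, by -0.41 (adjusted p = 0.135), and neither passed. Of 25 matrix substrates 1 passed. Fn1, or fibronectin, a matrix protein that hepatocytes secrete in quantity, measured 10.54, 10.85 and 10.67 with siRetSat, against 11.60, 11.62 and 11.62 with siControl (log2 fold change -0.93, adjusted p = 0.00305 by limma). Its groups were apart, while the proteoglycan Vcan, with -0.55 (adjusted p = 0.199), did not pass. Col1a1, a chain of type I collagen, had the widest spread of the list, with 6.11, 7.51 and 5.71 for siRetSat, against 6.01, 5.78 and 5.43 for siControl, a difference of 0.70 (adjusted p = 0.531 by limma) with the second siRetSat array far above all others.

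Of 26 shed surface proteins 1 passed. Cdh1, or E-cadherin, which is cut by Adam10, measured 8.82, 8.93 and 8.98 with siRetSat, against 9.40, 9.57 and 9.51 with siControl (log2 fold change -0.58, adjusted p = 0.0144 by limma). Its call was lost without the second siRetSat array (adjusted p = 0.0768), the second siControl array (adjusted p = 0.0907) or the third siControl array (adjusted p = 0.0647), whereas Fn1, Pzp and Plaur passed when any single array was left out. All 4 passed without both arrays numbered 1, and none passed without both arrays numbered 2 or both numbered 3. Cd44, a receptor for hyaluronan, differed by 0.35 (adjusted p = 0.0835) and Notch2 by -0.36 (adjusted p = 0.0862), and neither passed. None of 12 measured AP-1, ETS and NF-κB factors passed, nor did any of 12 ADAMTS-like and astacin genes. Within these lists Fosl1, a partner in AP-1, differed by 0.39 (adjusted p = 0.0701 by limma), and Tnf, the cytokine released by Adam17, by 0.49 at low values (adjusted p = 0.143 by limma). The median log2 fold change of the lists was 0.07 for activators and inhibitors, -0.003 for matrix substrates, -0.03 for shed proteins, -0.10 for the transcription factors, 0.01 for ADAMTS-like and astacin genes and -0.14 for the synapsins, against 0.003 over all genes.

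**Figure D4:**
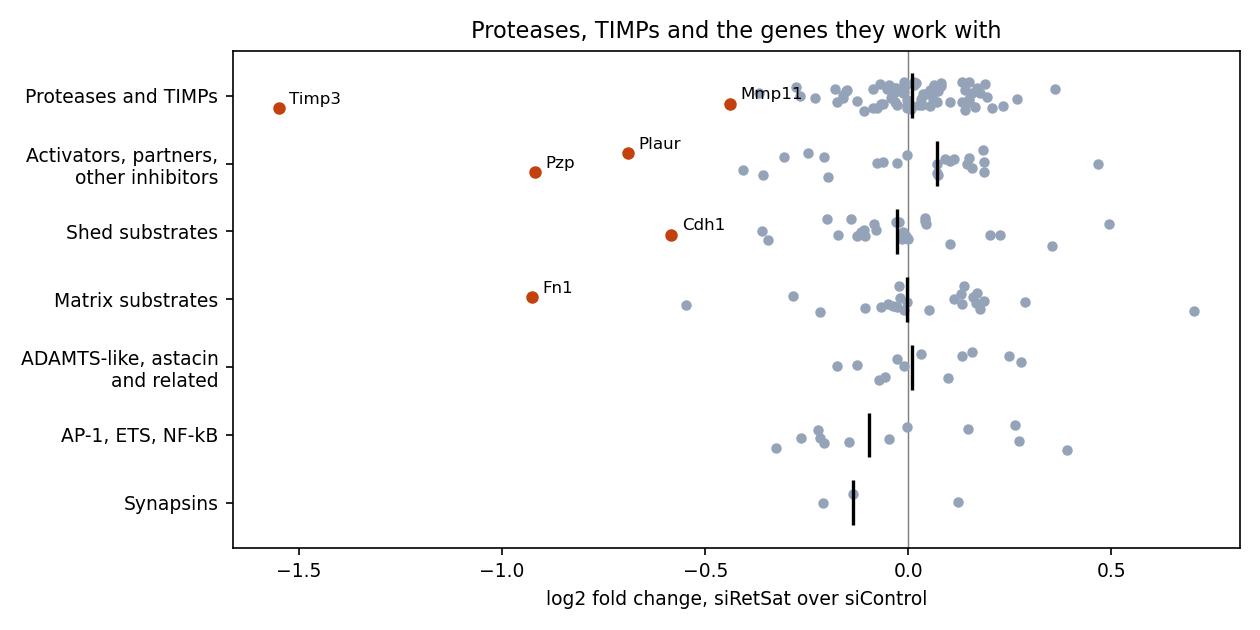
Log2 fold change (siRetSat over siControl, x axis) of each of the 78 members, in the top row, and of each gene in the 6 lists of partners, substrates, regulators and host genes, with a black bar at each median and red, named points for genes that passed the adjusted threshold by limma. Below the members, the red points are Fn1 at -0.93, Pzp at -0.92, Plaur at -0.69 and Cdh1 at -0.58.

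Because Timp3 and several Mmp genes are also made by cells other than hepatocytes, markers of those cells were read on the same arrays. Beside the counts of called markers below, 1.66% of all genes were called lower and 1.91% higher. All 12 hepatocyte markers were above 4.33, with a summed linear level of 27202 to 27578 with siRetSat and 28553 to 30055 with siControl. Called lower were 3 of them, Cps1, Fgb and Tat, which code for a urea cycle enzyme, a fibrinogen chain and tyrosine aminotransferase. None was called higher, while 5 of the 12 had differences above 0, the largest being Cyp3a11 at 0.64 (adjusted p = 0.0761 by limma). The linear sum weighs the brightest hepatocyte markers most, which were Alb (log2 fold change 0.07, not called), Trf (-0.17, not called) and Fgb (-0.42). It is therefore no measure of a general fall. Of 15 stellate cell and fibroblast markers 2 were called, both lower. They were Acta2 (log2 fold change -2.40, adjusted p = 0.000205 by limma) and Tagln (log2 fold change -1.46, adjusted p = 0.00615 by limma), which code for proteins of the contractile cytoskeleton. The summed level of all 15 was 597 to 882 with siRetSat and 1522 to 1885 with siControl. Leaving out Acta2 and Tagln, the only 2 called, the sums were 294 to 528 with siRetSat and 305 to 365 with siControl. Because these 2 were left out for their difference, the remaining sums cannot show whether the amount of stellate cells changed. Of the 15 markers, 9 were above 4.33, and the 6 under it were Des, Lrat, Pdgfrb, Lum, Hgf and Postn. Endothelial markers summed to 388 to 426 with siRetSat and 384 to 450 with siControl, with 1 of 12, Bmp2, called lower. Macrophage markers summed to 3354 to 3590 with siRetSat and 2494 to 2777 with siControl, with Cd14 called higher and 9 of 14 under 4.33. Most of this sum came from Cd68, which was not called (log2 fold change 0.40, adjusted p = 0.0563 by limma). Without Cd68 and Cd14 the sums were 172 to 187 with siRetSat and 164 to 181 with siControl. Cd68 and Cd14 were left out after their values were seen, so these sums are likewise no test of the amount of macrophages. Of cholangiocyte markers 1 of 5, Sox9, was called higher, and of neutrophil and lymphocyte markers 0 of 6 were called. Acta2 and Tagln passed when any single array was left out, whereas Bmp2 passed in 3 of these 6 omissions, Cd14 and Cps1 in 2 each, and Fgb, Tat and Sox9 in 1 each. Without both arrays numbered 1, Cd14 (0.58, adjusted p = 0.0583 by limma) and Cps1 (-0.86, adjusted p = 0.0611 by limma) did not pass. The part of these cells in the difference of Timp3 was not tested.

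The difference of Timp3 was compared across 17 other ways of handling the same 6 arrays, and its direction was negative in all of them. It passed the adjusted threshold in 15, the exceptions being the methods' t-test and the omission of both arrays numbered 2. Mmp11 passed in 5 of the 17, none of them an omission of arrays, and was also negative throughout.

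**Figure D5:**
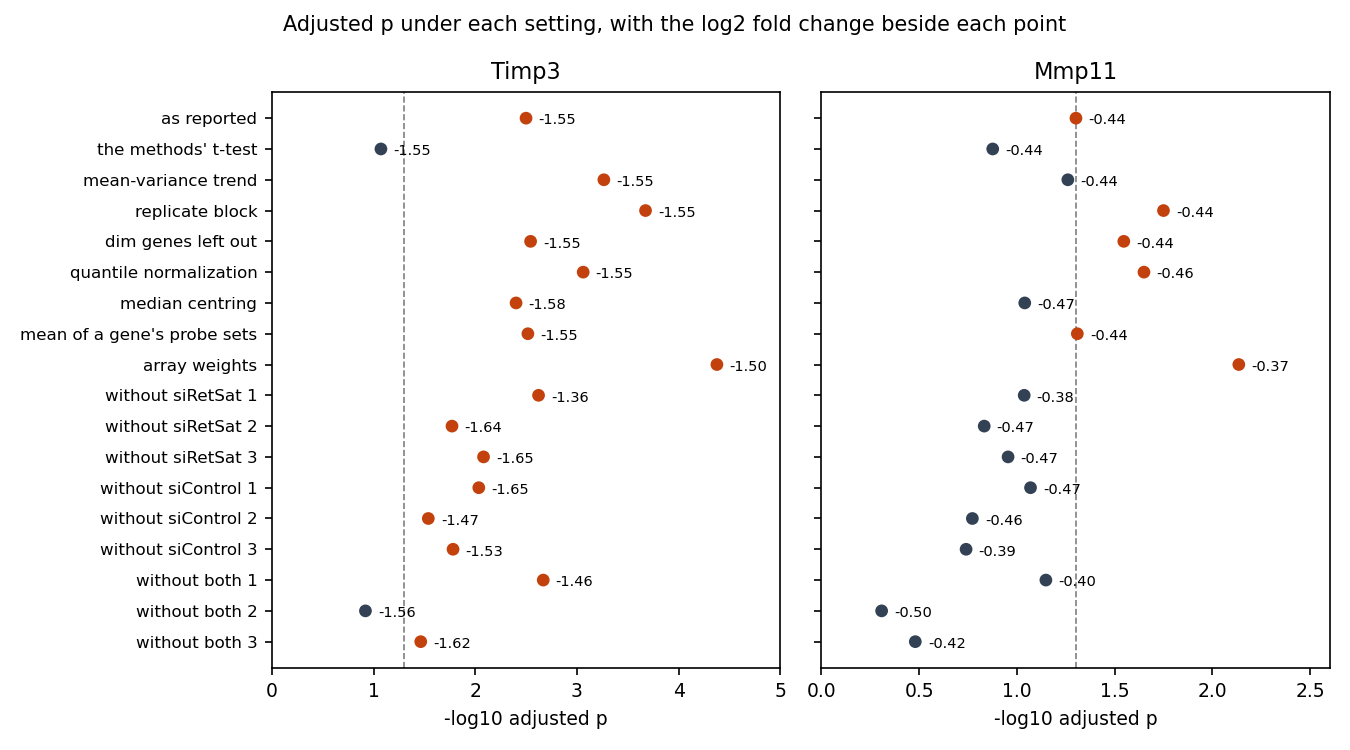
The -log10 of the adjusted p (x axis) of Timp3 and Mmp11 in the reported analysis (top) and under each other setting, with the log2 fold change printed beside each point, a dashed line at an adjusted p of 0.05 and red points past it. The log2 fold change of Timp3 stays between -1.65 and -1.36 in all settings, and that of Mmp11 between -0.50 and -0.37.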

How the data were processed

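The authors deposited RMA-processed log2 intensities for 35556 probe sets on 6 arrays, and the submitters' processing notes also name Partek 6.6. For any filter and for the probe annotation version, no statement was found in the sources used here. Gene names came from GEO's platform annotation (21789 with 1 symbol, 1621 with several and 12146 with none), and symbols were updated by Entrez identifier (21698 matched) with RefSeq's gene table of GRCm38.p6. Probe sets without a single symbol were left out, and the probe set with the highest mean over all arrays stood for a gene. Of the members, 75 had 1 probe set and 3 had several, while 2 probe sets of member genes with several symbols were set aside. All 78 members are protein coding in that table.

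Differences, siRetSat minus siControl, were fitted without covariates by lmFit and eBayes of limma 3.58.1 (R 4.3.3), and p-values were adjusted by Benjamini-Hochberg over 19938 genes. This step was tested on simulated data with independent noise for each gene and array. The simulation did not cover deviations that many genes of an array share. The number of arrays limits the precision, and array medians lay between 4.29 and 4.50. Python 3.11.15 with pandas 2.3.3 and matplotlib 3.10.9 served for tables and plots. Alternatives were the methods' t-test, a mean-variance trend, a block for the replicate number, omission of dim genes, quantile normalization, median centring, averaging over the probe sets of a gene, array weights and the omission of each array and of both arrays of a number. The stellate cell sums without Acta2 and Tagln left out the called genes of that list, and the macrophage markers without Cd68 and Cd14 were added after seeing the data.

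Named were Retsat, all Timp genes, every member past a threshold, and the 4 genes with the smallest p of each family and up to 4 of each list. The other members with values, among them Mmp2, Mmp9, Mmp12, Mmp14, Adam15, Adam17 and Adamts13, and the genes Tnf and Col1a1, the markers and the members named for a motif or for non-overlap, were named after their values were seen. Members and lists were chosen with earlier results of these data known. Promoter sequence was not analysed here for 30 members.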

Additional observations from a re-analysis of the deposited data

How the results depend on the processing

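The count of members called, 2 in the reported analysis, was 0 by the methods' t-test, 1 with a mean-variance trend, 1 with median centring and 6 with array weights (Timp3, Mmp11, Mmp19, Mmp10, Timp1 and Adamts9), and 2 under the other 4 settings, with 0 to 1 when arrays were left out. Called lower were 0 by the t-test, 1 with the trend, 1 with centring and 4 with weights, with 0 to 1 when arrays were left out, and called higher were 2 with weights. Past the study's cutoffs, 3 members by limma and 2 by the methods' t-test, were 2 to 6 when arrays were left out, with 5 without the third siRetSat array and 6 without the first siControl array. Timp3 did not pass by the t-test (-1.55, adjusted p = 0.0845) or without both arrays numbered 2 (-1.56, adjusted p = 0.12 by limma), and ranged between -1.65 and -1.36 when arrays were left out. Timp1 passed with array weights (0.35, adjusted p = 0.0333 by limma) and ranged between -0.01 and 0.27 when arrays were left out, the negative value coming without both arrays numbered 2. Timp4 turned to -0.01 with median centring and ranged between -0.04 and 0.12 when arrays were left out, with values below 0 without the first siRetSat array, the third siControl array or both arrays numbered 1. The cause of these differences was not tested.

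With the replicate number as a block, the members called stayed at 2, and Timp3 was at -1.55 with an adjusted p of 0.000211 by limma. Deviations of arrays with the same number correlated at 0.547, 0.0398 and 0.541, and those of arrays with different numbers at between -0.567 and 0.247. The reported fit did not take the numbers as pairs, and whether arrays of the same number share a source was not tested. The 4 calls in the lists of partners and substrates became 1 by the t-test, 8 with the trend, 11 with the replicate block, 7 without dim genes and 25 with array weights, and ranged between 0 and 6 when arrays were left out. Over all genes the 710 calls became 196 by the t-test, 1078 with the trend, 1541 with the block and 2905 with array weights. They became 207 to 646 without a single array. Leaving out both arrays numbered 1 raised them to 822, while 15 were left without both numbered 2 and 111 without both numbered 3.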
